A study of Rattus norvegicus with 30 samples.

Results

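Primary rat hepatocytes kept for 48 h in 3000 µM phenobarbital were compared with hepatocytes kept for the same time in vehicle, 5 culture wells against 5, with 1 array per well. These 10 arrays were chosen by their sample labels out of the 30 in the series, which also holds 300 µM phenobarbital at 48 h and all 3 treatments at 24 h, each with 5 wells. The cells were frozen hepatocytes of male Sprague Dawley rats, cultured between a collagen coat and a layer of Matrigel, and dosing began on day 3. The titles give water as the vehicle, while another label gives culture media. The labels call the wells independent cultures but give neither the number of donor animals nor their age, so p-values measure the spread between wells, some or all of which may share donors. No cell counts accompany the arrays, so a change in the mix of cells cannot be told apart from a change of RNA within a cell.

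Phenobarbital is a barbiturate and the textbook inducer of hepatic drug metabolism. It activates the constitutive androstane receptor CAR (encoded by Nr1i3), which together with the pregnane X receptor PXR (Nr1i2) raises the transcription of cytochrome P450 genes, in the rat above all Cyp2b1 and Cyp2b2. Adaptation to stress runs through other routes: kinases that phosphorylate the translation factor eIF2α raise the transcription factor ATF4 and its targets (the integrated stress response), and protein overload in the endoplasmic reticulum (ER) raises chaperone genes. Isolated hepatocytes also tend to lose liver-specific transcription in culture. Each change from vehicle below is therefore set against vehicle wells of the same culture age.

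Values are log2 signals of an Affymetrix whole-genome rat array, and a log2 change of 1 is a 2-fold difference. The level used as the lower limit of detection was the median of all values, log2 8.58. Of 31042 probe sets, 16596 reached it in at least 1 of the 6 group means and were tested with limma, with Benjamini-Hochberg adjustment over all of them and an adjusted p under 0.05 as the threshold. Gene lists were counted over 9831 genes, each by its brightest probe set.

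Array 4 of the 3000 µM group stood apart from the other 48 h arrays. Its hybridization controls, spiked in at a fixed amount, averaged log2 14.57, against at most 13.23 on the other 3000 µM arrays and 13.26 on the vehicle arrays. Its actin 3′ to 5′ ratio, a sign of RNA integrity and labelling, was 3.76 against 2.58 to 2.96 in the other 9. Its mean correlation with the other 3000 µM arrays was 0.954, the lowest of the 5. Counts below are therefore given without it wherever they moved by more than 1.5 times. Without it, 174 of the 180 results for named genes kept their direction and their side of the threshold.

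High-dose phenobarbital changed a large share of the transcriptome by 48 h. Of 16596 probe sets, 6539 passed the test (39.4%), 3232 higher (19.5%) and 3307 lower (19.9%). Large changes leaned downward: 488 probe sets were at least 2-fold lower (2.94%) and 211 at least 2-fold higher (1.27%). Without array 4 the test called 6532, 3171 higher and 3361 lower. Among genes, 132 were at least 2-fold higher (1.34%) and 260 at least 2-fold lower (2.64%). On 1915 probe sets (11.5%) all 5 treated arrays lay above all 5 vehicle arrays, and on 2105 (12.7%) all lay below. Counted by gene, 4258 of 9831 passed (43.3%): 2287 rose (23.3%) and 1971 fell (20%), and the median gene changed by 0.02. These shares are the background for each gene list below.

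**Figure D1:**
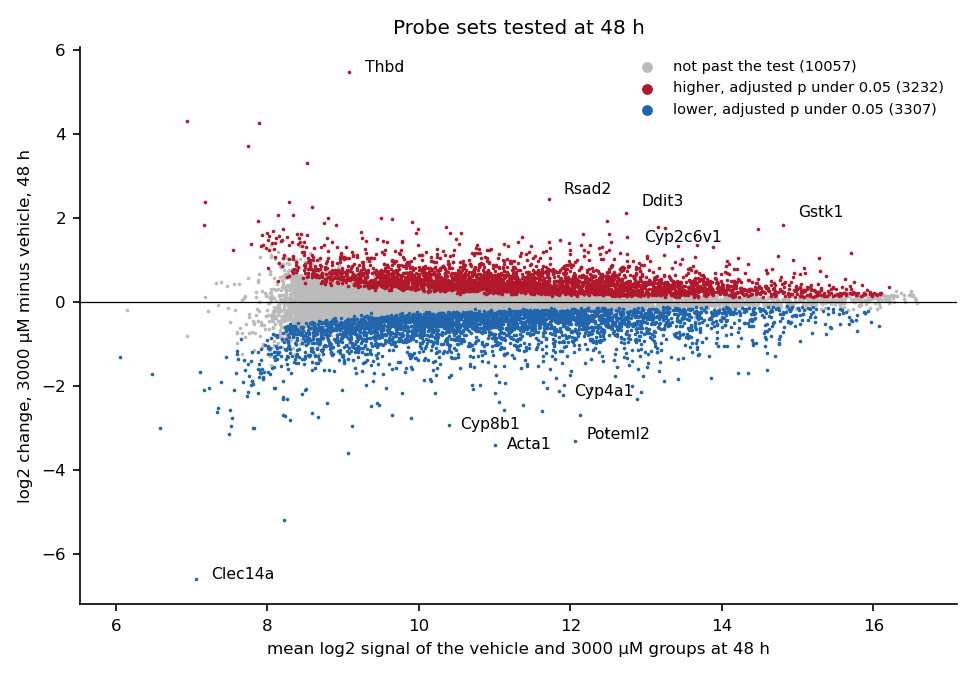
Each point is 1 of the 16596 tested probe sets, with the mean log2 signal of the vehicle and 3000 µM groups at 48 h on the x axis and the log2 change on the y axis; red and blue points passed the test. The 3232 higher and 3307 lower probe sets span the whole range of signal, and falls beyond 2-fold outnumber rises beyond 2-fold, 488 to 211.

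The size of the shift differed between arrays. Over the 6539 probe sets called, the median size of the shift from the vehicle mean was 0.40 on array 1, 0.47 on array 2, 0.45 on array 3, 0.53 on array 4 and 0.54 on array 5. Array 1 lay nearest to the vehicle mean on 1926 of these probe sets (29.5%) and array 5 on 576 (8.81%). Array 4, which stood apart in its controls, was nearest on 1736 (26.5%) and farthest on 2322 (35.5%, the largest share of the 5). The part of the array's quality in these differences was not tested. In several of the steepest falls below, array 1 holds the highest and array 5 the lowest treated value.

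Cyp2b1 and Cyp2b2, the best-known phenobarbital-induced genes, did not pass the test at this dose and time. They share 1 probe set and cannot be told apart here. In vehicle wells their log2 signal was 10.85, 11.18, 10.79, 10.83 and 10.47, and in 3000 µM wells it was 12.40, 10.78, 10.36, 10.55 and 10.65. Well 1 alone stood above the vehicle range, and the other 4 treated wells lay within or below it. The change was 0.12 ± 0.23 (SE, 5 wells against 5, limma adjusted p = 0.706), and −0.24 without well 1 (limma adjusted p = 0.144). At 300 µM the same probe set read 14.36, 14.53, 14.48, 14.56 and 14.72, all 5 above every vehicle and every 3000 µM well. The direct comparison of the 2 doses gave −3.58 for 3000 µM against 300 µM (limma adjusted p = 5.04e-13). At 24 h the 3000 µM effect was 1.17 (limma adjusted p = 0.000166), and its difference from the 48 h effect, −1.05, did not pass the test (limma adjusted p = 0.0607).

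Other CAR and PXR targets split. Cyp2c6v1, another phenobarbital-inducible P450, rose from 13.63, 13.55, 13.71, 13.64 and 13.56 in vehicle wells to 15.48, 15.16, 15.29, 15.58 and 15.21. The 2 groups were far apart, with a change of 1.72 ± 0.06 (3.30-fold, limma adjusted p = 1.67e-21), yet 3000 µM stayed below 300 µM by a log2 difference of −0.52 (limma adjusted p = 4.53e-09). Cyp3a2 rose by 1.12 ± 0.11, from 9.78 ± 0.27 to 10.90 ± 0.18 (SD, n = 5 wells each), with no overlap between the groups. Cyp3a23-3a1, the main rat CYP3A gene responsive to PXR, rose by 0.35 ± 0.11, and array 4 carried much of that: it read 17.15 where the other 4 read 16.11 to 16.24. Without array 4 the rise was 0.16 (limma adjusted p = 0.0304).

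Further readouts of the pathway did not rise. Alas1, the rate-limiting enzyme of heme synthesis that supplies P450 enzymes with their cofactor, fell by 0.36 ± 0.11 (limma adjusted p = 0.00654), and at 300 µM its change was 0.62 (limma adjusted p = 0.000532). Por, the reductase that passes electrons to P450 enzymes, changed by −0.13 ± 0.09 and did not pass (limma adjusted p = 0.260), although without array 4 it was called lower at −0.23 (limma adjusted p = 0.00955). The receptor gene itself fell: Nr1i3 read 11.22, 11.15, 11.12, 11.26 and 11.15 in vehicle wells and 10.69, 9.24, 10.28, 9.99 and 9.12 in treated wells. No treated well reached the vehicle range, and the treated wells were spread over more than 1.5 log2 units. Nr1i3 changed by −1.31 ± 0.17 (limma adjusted p = 2.04e-07), while Nr1i2 changed by −0.18 ± 0.08 and did not pass (limma adjusted p = 0.0959).

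Of 22 tested phase I genes listed as CAR and PXR targets, 8 rose and 9 fell at 3000 µM, with a median of −0.07. At 300 µM, against the same 5 vehicle wells, 8 of the 22 rose and 0 fell, and the background there was 1.08% of genes higher and 0.895% lower. Set directly against 300 µM, the 3000 µM wells were lower for 13 of the 22 genes and higher for 2, where 17.2% of all genes were lower and 21.3% higher. Among the falls from vehicle were Cyp2c12, a P450 known for its female-biased expression, at −1.41 ± 0.16, and Cyp2a1, a testosterone hydroxylase, at −1.14 ± 0.13. The groups did not overlap for either gene.

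**Figure D2:**
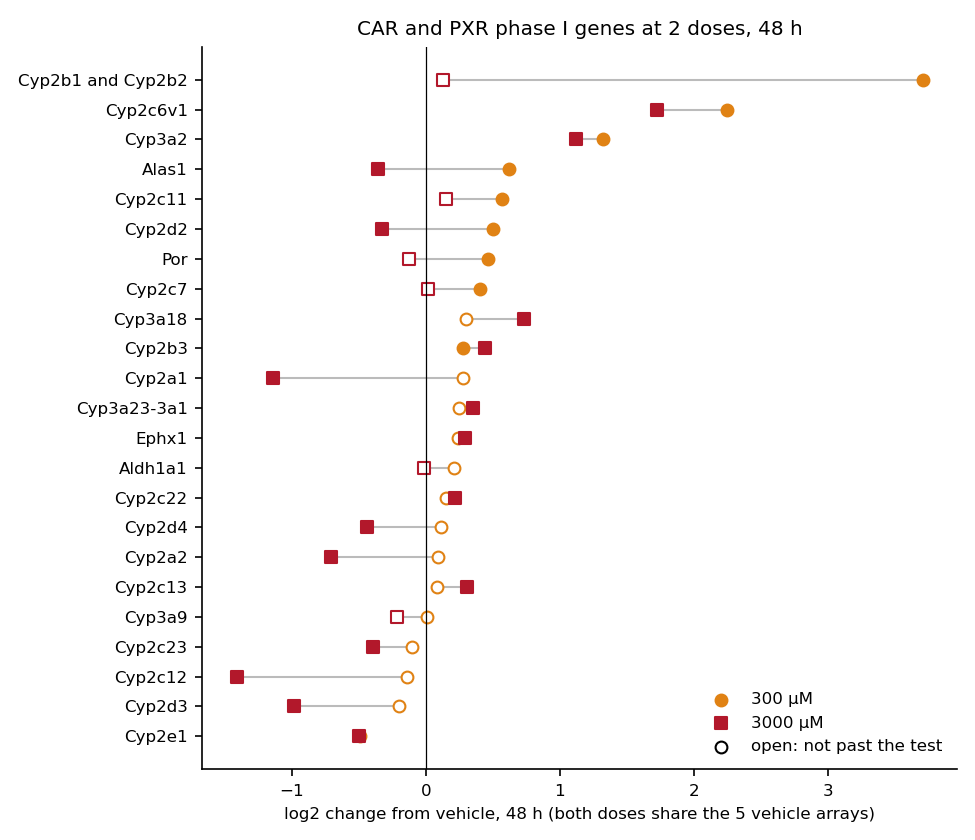
Log2 change from vehicle at 48 h (x axis) for the 22 tested CAR and PXR phase I genes and for the shared probe set of Cyp2b1 and Cyp2b2 (rows), at 300 µM (orange circles) and 3000 µM (red squares); open symbols did not pass the test. Cyp2b1 and Cyp2b2 lie at 3.71 for 300 µM and 0.12 for 3000 µM, and the 2 doses share the 5 vehicle wells.

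Conjugation and transport genes moved both ways. Gstk1, a mitochondrial and peroxisomal glutathione transferase, rose from 14.02, 13.96, 13.90, 13.83 and 13.80 to 15.57, 15.86, 15.67, 16.04 and 15.49, with every treated well above every vehicle well. Its change was 1.82 ± 0.07 (3.54-fold, limma adjusted p = 7.04e-20), against 0.52 at 300 µM. Ugt2b10, a glucuronosyltransferase, rose by 1.42 ± 0.08, and Sult1c2, a sulfotransferase, rose by 1.35 ± 0.08, whereas at 300 µM they changed by 0.11 and 0.06 and neither passed the test. Sult1c3 fell by 1.88 ± 0.42 to a group mean below the detection level. In all, 12 of 35 phase II genes rose and 11 fell, with a median of −0.01. With array medians set equal, 13 rose and 7 fell.

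Among 20 transporter genes, 5 rose and 8 fell. The rises included Abcb1a, the drug efflux pump P-glycoprotein, which went from 11.06, 11.08, 11.37, 10.83 and 11.27 to 12.32, 12.58, 12.75, 12.58 and 12.74. No vehicle well reached a treated one, and the change was 1.47 ± 0.11 (2.78-fold, limma adjusted p = 4.18e-13). The bile acid and anion uptake carriers went the other way: Slc10a1, the sodium-dependent bile acid importer, fell by 1.52 ± 0.12, and Slco1b2, an organic anion importer, fell by 1.20 ± 0.12. Slc28a2, a nucleoside importer, was also called lower, but both of its group means, 8.51 and 6.89, lay below the detection level, it was tested because of another group, and its groups overlapped, so no size is given.

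Genes of bile acid synthesis leaned down. None of the 16 tested members rose and 11 fell, with a median of −0.55, beside 20% of all genes lower. Cyp8b1, the sterol hydroxylase needed for cholic acid, read 11.97, 11.70, 11.84, 12.03 and 11.75 in vehicle wells and 9.68, 9.06, 8.61, 9.46 and 7.84 in treated wells. All treated wells were below all vehicle wells by at least 2 log2 units. It changed by −2.93 ± 0.19 (7.60-fold lower, limma adjusted p = 1.82e-13). Cyp7a1, the rate-limiting enzyme of the classical pathway, read 10.79, 10.56, 10.51, 10.80 and 10.41 in vehicle wells and 10.32, 9.34, 8.65, 8.64 and 8.26 in treated wells. Treated well 1 lay just below the vehicle range and well 5 far below it. The Cyp7a1 change was −1.57 ± 0.25 (limma adjusted p = 5.29e-06), while at 300 µM the change was 1.02 in the other direction (limma adjusted p = 0.0240), and the direct difference between the doses was −2.60 (limma adjusted p = 9.46e-10). Baat, which conjugates bile acids to amino acids, fell by 1.16 ± 0.11. Cyp17a1, the steroid hydroxylase and lyase, fell by 2.96 ± 0.20 to 7.64 ± 0.65 (SD, n = 5), below the detection level.

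Liver-enriched transcription factors fell too. Of 20 tested, 12 fell and 3 rose, with a median of −0.50. Foxa3, a forkhead factor of liver genes, read 10.05, 10.12, 10.17, 10.12 and 10.30 in vehicle wells and 8.53, 8.92, 8.46, 9.47 and 8.93 in treated wells. The groups did not overlap, and the change was −1.29 ± 0.16 (limma adjusted p = 4.65e-08). Onecut1 (HNF6) fell by 1.24 ± 0.17, Foxa1 fell by 1.13 ± 0.16 and Prox1 fell by 1.04 ± 0.10. The probe sets of Hnf4a, the central hepatocyte nuclear receptor, disagreed: the brightest fell by 0.43 and the other 2 rose by 0.47 and 0.54, all past the test. The second probe set of Prox1 changed by −0.38 and did not pass. Among 24 nuclear receptors and cofactors, 8 fell and 2 rose, with Nr1i3 the steepest fall and Nr3c1, the glucocorticoid receptor, at −0.71 ± 0.07. Esrra, an orphan receptor of mitochondrial genes, rose by 0.92 ± 0.16. Ppara did not reach the detection level and was not tested.

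Genes of fatty acid oxidation leaned down. Of 42 tested PPARα targets and oxidation genes, 36 fell and 1 rose, and the median of −0.69 was the lowest of the 34 lists, against 0.02 for all genes. Cyp4a1, a fatty acid omega-hydroxylase and a standard PPARα target, read 13.05, 12.86, 12.96, 12.86 and 12.81 in vehicle wells and 10.89, 10.63, 10.82, 10.75 and 10.82 in treated wells. Within each group the wells were nearly level, and the groups were separated by almost 2 log2 units. The change was −2.13 ± 0.07 (4.37-fold lower, limma adjusted p = 5.05e-21). At 300 µM Cyp4a1 changed by −0.85 and also passed, and 7 of the 42 genes fell at that dose. The brightest probe set of Cpt1a, which commits fatty acids to mitochondrial import, fell by 1.74 ± 0.13, and its second probe set changed by −0.11 and did not pass. Ehhadh, a peroxisomal oxidation enzyme, fell by 1.48 ± 0.16. Plin5, a lipid droplet coat protein, fell by 1.69 ± 0.34 to a group mean below the detection level, so its size is uncertain.

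Carbohydrate and fat synthesis genes also leaned down. Of 34 genes of glucose, glycogen and glycolysis, 18 fell and 2 rose, with a median of −0.39. Txnip, a glucose-responsive inhibitor of thioredoxin and of glucose uptake, read 12.24, 12.31, 12.22, 12.27 and 12.22 in vehicle wells and 10.42, 10.27, 9.93, 9.69 and 9.08 in treated wells. Vehicle wells were almost identical, and every treated well lay far below them, well 5 the farthest. Txnip changed by −2.37 ± 0.15 (5.18-fold lower, limma adjusted p = 2.30e-14), and its relative Arrdc4 by −1.57 ± 0.10. Gys2, liver glycogen synthase, fell by 1.97 ± 0.17, and Pc, pyruvate carboxylase of gluconeogenesis, fell by 1.52 ± 0.12. Of 30 lipogenic genes, 15 fell and 6 rose. Lpin1, a phosphatidate phosphatase and coactivator, fell by 1.76 ± 0.09, Thrsp (Spot 14), a marker of lipogenesis, fell by 1.68 ± 0.17, and Acly, which supplies cytosolic acetyl-CoA, fell by 0.98 ± 0.07.

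Cholesterol synthesis leaned the other way. Of 25 tested genes of the pathway and SREBP2 targets, 13 rose and 5 fell, with a median of 0.27. With array medians set equal, 13 rose and 3 fell. Cyp51, lanosterol demethylase, rose from 13.26, 13.32, 13.08, 13.10 and 13.16 to 14.09, 13.79, 14.02, 14.13 and 14.21, without overlap, a change of 0.86 ± 0.08 (limma adjusted p = 7.32e-11). Msmo1, a methylsterol monooxygenase of the same pathway, rose by 0.86 ± 0.08, and Acat2, which makes acetoacetyl-CoA, rose by 0.81 ± 0.09. The brightest probe set of Sc5d, a sterol desaturase, rose by 0.55 and a second by 0.90, but the other one fell by 0.23.

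Amino acid breakdown fell in part. Of 52 genes of the urea cycle and amino acid catabolism, 28 fell and 9 rose, with a median of −0.29. The 4 steepest falls were those of the following genes. Ftcd, of histidine breakdown, fell by 1.83 ± 0.12, Bhmt, which remethylates homocysteine, fell by 1.81 ± 0.13, Gnmt, glycine N-methyltransferase, fell by 1.60 ± 0.12 and Agxt, which detoxifies glyoxylate, fell by 1.54 ± 0.11. In Bhmt the vehicle wells read 14.80, 14.87, 14.76, 14.84 and 14.59 and the treated wells 13.61, 12.72, 13.28, 12.69 and 12.49. The groups did not overlap. Cps1, the entry enzyme of the urea cycle, fell by 0.31 ± 0.09, although treated well 4, on the array that stood apart, read 16.14 and lay above all 5 vehicle wells. A second Cps1 probe set fell by 1.04 without overlap (limma adjusted p = 1.82e-09).

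Genes of the integrated stress response leaned up. Of 38 tested members, 20 rose and 8 fell, with a median of 0.23, and 7 of the rises reached 2-fold. Ddit3 (CHOP), a transcription factor of prolonged stress, was the second largest of the 12 leading rises. It read 11.89, 11.71, 11.71, 11.48 and 11.60 in vehicle wells and 13.74, 13.85, 13.75, 13.45 and 14.22 in treated wells. All treated wells were more than 1.5 log2 units above the highest vehicle well, and the change was 2.12 ± 0.09 (4.36-fold, limma adjusted p = 1.98e-18). At 300 µM the Ddit3 change was 0.31 and did not pass (limma adjusted p = 0.0769).

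Other members rose by less. Gdf15, a secreted stress hormone, went from 8.78, 8.76, 9.33, 9.12 and 9.34 to 10.08, 10.69, 10.45, 10.19 and 10.998, without overlap, a change of 1.42 ± 0.16. Atf3, a stress-induced repressor, went from 11.46, 11.65, 11.51, 11.68 and 11.89 to 12.62, 12.46, 12.83, 12.94 and 13.27, also without overlap, a change of 1.19 ± 0.10. Sesn2, an inhibitor of mTORC1, rose by 1.23 ± 0.10 and Trib3, a pseudokinase that ATF4 and CHOP induce, rose by 0.97 ± 0.10. Atf4 itself rose by 0.36 ± 0.04 and Asns, asparagine synthetase, rose by 0.42 ± 0.06. Fgf21, a fasting and stress hormone that is also on the PPARα list, was the lowest of the stress list at −1.002. Aminoacyl-tRNA synthetases, many of them ATF4 targets, rose in 12 of 19 cases and fell in 0, with a median of 0.29. Sars1 led at 0.81 ± 0.07.

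Promoters of the stress list were searched for TGATGNAA, the core of the C/EBP-ATF response element that ATF4 binds with a C/EBP partner, on both strands. RefSeq promoters of build GRCr8, from 250 bases before to 50 after the start, matched 33 of the 38 members. The motif was in 7 of the 33 (21.2%), beside 3.98% of all 33469 promoters. The list was drawn up as genes of a response that runs through ATF4, so this contrast is no result of the present data. Each member was counted by 1 promoter, while the background counts every promoter of that length. It was in 5 of the 18 that rose, in 2 of the 8 that fell and in 0 of the 7 that did not pass. The stretch around each match is shown 5′ to 3′ in the direction of the gene, with the match in capitals, so that risers and fallers can be compared.
Trib3 (chr3:161275534-161275580, minus strand): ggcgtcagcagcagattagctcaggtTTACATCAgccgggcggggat
Chac1 (chr3:126795938-126795997, plus strand): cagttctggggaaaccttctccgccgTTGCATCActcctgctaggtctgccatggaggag
Slc1a4 (chr14:98761764-98761812, minus strand): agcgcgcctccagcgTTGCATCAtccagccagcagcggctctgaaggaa
Slc7a1 (chr12:11664432-11664487, plus strand): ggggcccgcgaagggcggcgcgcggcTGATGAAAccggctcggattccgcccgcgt
Nupr1 (chr1:190645923-190645982, minus strand): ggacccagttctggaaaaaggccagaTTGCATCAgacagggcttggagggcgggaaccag
Herpud1 (chr19:10614858-10614917, minus strand): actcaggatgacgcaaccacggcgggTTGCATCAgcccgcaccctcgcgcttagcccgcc
Fgf21 (chr1:105221486-105221545, minus strand): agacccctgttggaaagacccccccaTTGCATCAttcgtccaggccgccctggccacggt
The first 5 genes rose, by 0.97 for Trib3, 0.50 for Chac1, 0.43 for Slc1a4, 0.29 for Slc7a1 and 0.22 for Nupr1. The last 2 carried the same core and fell, by 0.29 for Herpud1 and fell by 1.002 for Fgf21. Except for Trib3 and Fgf21, which were named above, these genes are named because they hold the motif. A match describes letters in the window and not a bound site.

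Other protein quality-control lists leaned up as well. Of 37 genes of the ER unfolded protein response, 15 rose and 5 fell, with a median of 0.18, and without array 4, 17 rose and 8 fell. Sdf2l1, an ER chaperone cofactor, went from 11.41, 11.42, 11.47, 11.56 and 11.46 to 12.60, 12.93, 12.87, 12.85 and 12.85. The wells of each group were tight and far apart, with a change of 1.35 ± 0.07 (limma adjusted p = 1.47e-16). Selenos, a selenoprotein of ER-associated degradation, rose by 0.77 ± 0.06 and Edem1, which hands misfolded glycoproteins to degradation, fell by 0.82 ± 0.07. Of 24 heat shock genes, 12 rose and 3 fell, with a median of 0.23. The fallers included the small chaperone Cryab at −1.29 ± 0.08 and the stress-inducible Hspa1a at −0.87 ± 0.12, both against the direction of most of that list.

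Proteasome subunits rose in 25 of 36 cases and fell in 2, with a median of 0.22. The number that fell was 1 without array 4 and 0 with array medians set equal. Psma7, a core subunit, rose by 0.56 ± 0.05 and Psmd11, of the regulatory particle, rose by 0.55 ± 0.05. Genes of autophagy and the lysosome rose in 15 of 32 cases and fell in 5 (3 with array medians set equal), led by Neu1, the lysosomal sialidase, which went from 10.54, 10.73, 11.05, 10.87 and 10.89 to 12.002, 12.11, 12.16, 12.23 and 12.22. The groups were separated by almost 1 log2 unit, and the change was 1.33 ± 0.11 (limma adjusted p = 1.99e-11). Tfe3, a transcription factor of lysosomal genes, rose by 0.72 ± 0.13, and Ulk1, the kinase that starts autophagy, fell by 0.87 ± 0.12, while its other probe set changed by −0.055 and did not pass (limma adjusted p = 0.834). Ribosomal protein genes rose in 17 of 40 cases and fell in 0, by small amounts (median 0.15). That count was 12 without array 4, 16 after quantile normalization and 24 with array medians set equal. Respiratory chain genes mostly did not pass the test: 54 of 68 did not, 3 rose and 11 fell. Without array 4, 7 rose and 9 fell, and with array medians set equal 2 fell.

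**Figure D3:**
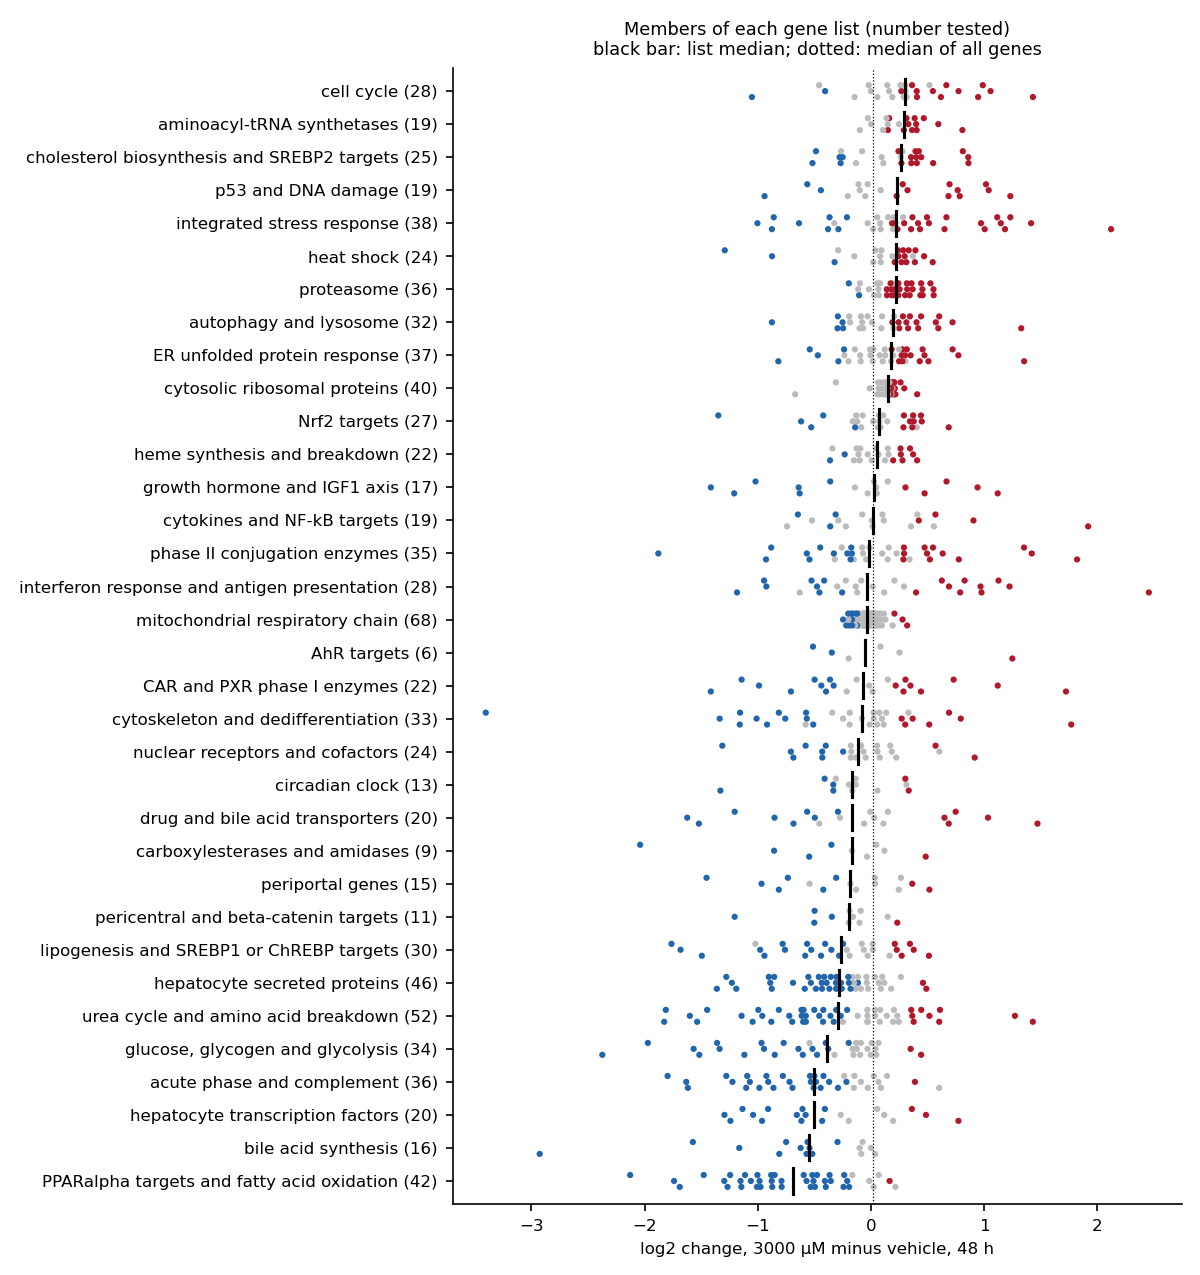
Each point is a tested member of 1 of 34 gene lists (rows, number tested in brackets), placed by its log2 change at 48 h (x axis); red points rose, blue points fell and grey points did not pass the test. The lists run from a median of −0.69 for PPARα targets and fatty acid oxidation to 0.30 for the cell cycle, and the dotted line marks the median of all genes, 0.02.

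Genes of secreted liver proteins and the acute phase leaned down. Of 36 acute phase and complement genes, 25 fell and 1 rose, with a median of −0.50. Hamp, which encodes the iron hormone hepcidin, went from 11.21, 11.01, 11.07, 11.49 and 11.68 to 9.69, 9.54, 9.58, 9.51 and 9.16. The groups were more than 1 log2 unit apart, and the change was −1.80 ± 0.20 (limma adjusted p = 6.14e-09). Complement C5 fell by 1.63 ± 0.13, and Serpina3n, a protease inhibitor of the acute phase, fell by 1.62 ± 0.08. Of 46 secreted-protein genes, including 3 fibrinogen genes on both lists, 29 fell and 2 rose. They included Fga, the fibrinogen alpha chain, at −1.28 ± 0.08 and Plg, plasminogen, at −1.23 ± 0.10. A second Fga probe set fell by 2.21.

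Albumin did not follow these falls. Alb read 16.34, 16.47, 16.32, 16.39 and 16.33 in vehicle wells and 16.61, 16.45, 16.30, 17.51 and 16.31 in treated wells. Apart from array 4 the treated wells were close to the vehicle range. The change was 0.27 ± 0.15 (limma adjusted p = 0.170), and 0.05 without array 4 (limma adjusted p = 0.764). In the growth hormone axis, where 5 of 17 genes rose and 6 fell, Igf1 fell by 1.21 ± 0.08 and the receptor gene Ghr fell by 1.02 ± 0.08. The other 2 probe sets of Igf1 fell by 1.87 and fell by 1.92, and the other probe set of Ghr fell by 0.42.

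Genes of p53 signalling and the cell cycle leaned up. Of 19 p53 and DNA damage genes, 10 rose and 3 fell, with a median of 0.23. Mdm2, the ubiquitin ligase that p53 induces, went from 11.97, 11.93, 11.92, 11.72 and 11.92 to 12.95, 12.81, 12.95, 12.76 and 13.08, without overlap, a change of 1.02 ± 0.06 (2.02-fold, limma adjusted p = 1.38e-14). Plk2, a kinase of the checkpoint response, rose by 1.04 ± 0.06, whereas Sesn1 fell by 0.94 ± 0.11, and Cdkn1a, the p53 target named here after its values were seen, fell by 0.44. Sfn (stratifin), a checkpoint protein of epithelial cells, rose by 1.60 ± 0.12 without overlap. Of 28 cell cycle genes, 12 rose and 2 fell, with a median of 0.30. Without array 4, 9 rose and 2 fell. Mcm6, of the replicative helicase, rose by 0.99 ± 0.22 from a vehicle mean below the detection level. Ccne1 and E2f1 were also called higher, from vehicle means of 7.77 and 7.58, below that level. Each lost its call in 8 of 18 alternatives. Such genes can enter the list through the treated group alone, which favours rises in the count and the median.

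Interferon and antigen genes split within their list. Of 28, 10 rose and 8 fell. Rsad2 (viperin), an antiviral radical-SAM enzyme, was the first of the 12 leading rises among genes detected in both groups and went from 11.09, 10.20, 10.13, 10.35 and 10.68 to 12.96, 13.01, 12.88, 12.61 and 13.27. Every treated well was at least 1.5 log2 units above every vehicle well, and the change was 2.46 ± 0.19 (5.49-fold, limma adjusted p = 5.70e-12). The immunoproteasome subunit Psmb8 rose by 1.13 ± 0.08 and the chemokine Cxcl9 rose by 1.23 ± 0.11, and Cxcl9 also rose at 300 µM, by 0.995. Isg15, a ubiquitin-like interferon product, fell by 1.18 ± 0.27, with vehicle well 5 high at 12.09 and treated wells from 9.53 to 10.19. At 300 µM, against the same vehicle wells, its change was −1.02.

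The list of cytoskeletal genes held the steepest of the 12 leading falls. Acta1, skeletal muscle α-actin, read 12.61, 12.49, 12.40, 12.89 and 13.18 in vehicle wells and 10.22, 9.69, 9.39, 8.97 and 8.29 in treated wells. The groups were more than 2 log2 units apart, and the change was −3.40 ± 0.26 (10.6-fold lower, limma adjusted p = 5.13e-12). Poteml2, annotated as a POTE family member, read 13.78, 13.75, 13.56, 13.75 and 13.72 in vehicle wells and 11.95, 10.43, 10.16, 9.81 and 9.68 in treated wells, a change of −3.30 ± 0.23. Ccn2, a connective tissue growth factor of the matrix response, fell by 1.34 ± 0.09, and Lox, the collagen cross-linker lysyl oxidase, fell by 2.31 ± 0.20. Stmn1, a microtubule destabilizer, rose by 1.77 ± 0.19. Of 33 genes on that list, 11 fell and 7 rose.

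The remaining leading changes belonged to varied functions. Steap4, a metalloreductase, fell by 2.68 ± 0.16, Synrg, a clathrin adaptor partner, fell by 2.45 ± 0.09, Prkcb, protein kinase C beta, fell by 2.07 ± 0.25, Anxa8, an annexin, fell by 2.04 ± 0.13 and Ces1d, a carboxylesterase, fell by 2.04 ± 0.10. Rises came from Shc4, a receptor adaptor protein, at 1.90 ± 0.18, Tcp11l2 at 1.78 ± 0.06, Dnase2b, an acid DNase, at 1.75 ± 0.07, Tmsb15b2, a thymosin, at 1.74 ± 0.18, Rragd, a GTPase that recruits mTORC1 to lysosomes, at 1.64 ± 0.19 and Prrg4 at 1.63 ± 0.17. All of these had no overlap between the 5 treated and 5 vehicle wells, by the rule that selected them.

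Some genes crossed the detection level. Thbd, thrombomodulin, an anticoagulant receptor best known from endothelium, read 5.88, 6.72, 6.86, 5.67 and 6.64 in vehicle wells and 11.86, 11.84, 11.53, 11.80 and 12.05 in treated wells. All vehicle wells were below the detection level and all treated wells well above it. The change was 5.46 ± 0.51 (limma adjusted p = 2.65e-10), a second probe set changed by 4.25, and at 24 h the change was 5.02. Igsf23 changed by 3.71, Rgs19, a regulator of G proteins, by 2.37 and Pla2g4b, a phospholipase, by 2.06, all from vehicle means below that level. Size is uncertain for such genes, because low signals on this array have a wide spread.

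In the other direction, Clec14a, a lectin of endothelial cells, read 10.49, 10.08, 10.65, 10.24 and 10.27 in vehicle wells and 6.53, 5.70, 0.90, 3.95 and 1.75 in treated wells. No treated well reached the detection level, so the fitted −6.58 ± 0.73 says little about the size of the fall. Abcc9, a subunit of potassium channels, changed by −3.01, Tmem255b by −3.004 and Rem2, a small GTPase, by −2.96, with treated means below the level. The vehicle mean of Abcc9, 8.09, was below it too, and the gene was tested because of another group.

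Markers of other cell types were checked beside these results. Of 15 endothelial markers on the array, 10 lay below the detection level in both groups, among them Pecam1, Stab2, Lyve1 and Vwf, and of the 5 tested 2 fell and 1 rose. The summed signal of the endothelial list was 4428 to 5425 in vehicle wells and 2745 to 3691 in treated wells. Clec14a gave 24.4% to 30.8% of that sum in vehicle wells and at most 3.36% in treated wells. Without Clec14a the sum was 3239 to 3817 in vehicle and 2652 to 3675 in treated wells, so the groups overlapped. Thbd is not on the list. Stellate cell and fibroblast markers summed to 6204 to 7559 in vehicle and 5340 to 6653 in treated wells, with 10 of 18 below the level. Macrophage markers summed to 21780 to 25310 and 24550 to 27720, and Cd14 gave the largest share. Cholangiocyte markers summed to 24370 to 27180 and 22230 to 23190, and lymphocyte markers to 3441 to 3912 and 3138 to 3892. The hepatocyte label held: all 9 hepatocyte markers on the array were tested, 3 fell and 0 rose. Their sum was 420900 to 488900 in vehicle and 395600 to 664000 in treated wells. The highest treated sum was that of array 4, which stood apart and on which Alb read log2 17.51. The part of other cells in Clec14a, Thbd or the interferon genes was not tested.

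**Figure D4:**
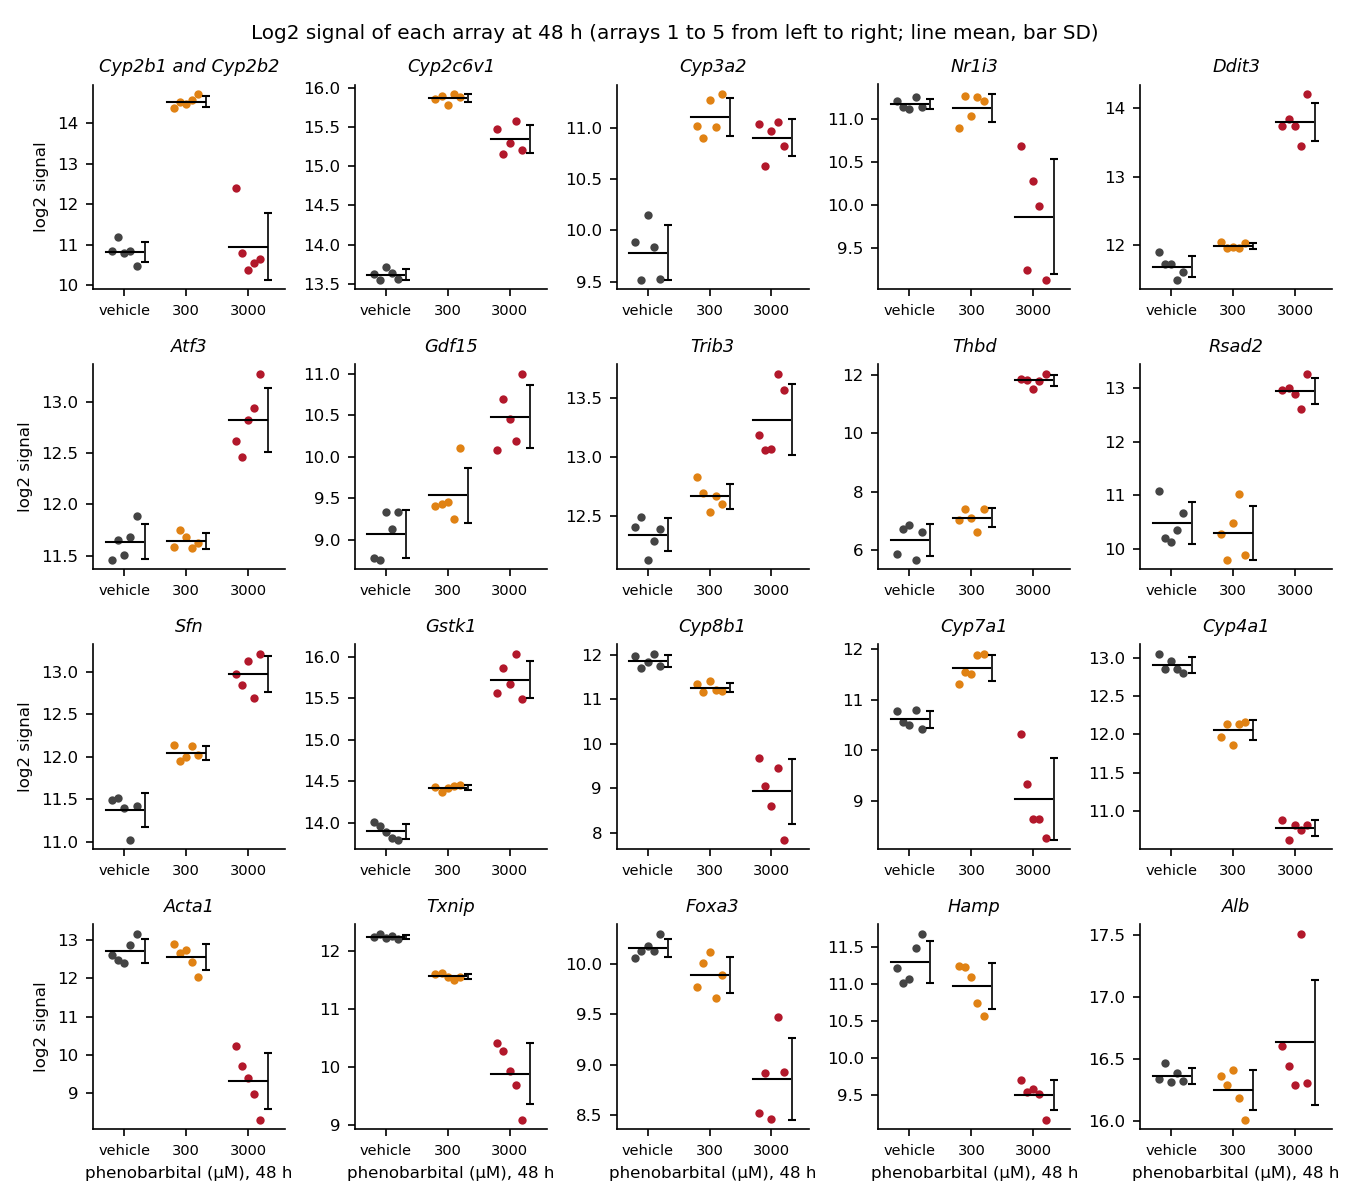
Log2 signal (y axis, a separate scale per panel) of 20 named genes at 48 h in each of 5 wells of vehicle, 300 µM and 3000 µM phenobarbital (x axis), with the group mean as a line and the SD as a bar. Cyp2b1 and Cyp2b2 are high at 300 µM only, Ddit3, Atf3 and Rsad2 are high at 3000 µM only, and array 4 of the 3000 µM group (the fourth point) stands out for Alb at 17.51.

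The 48 h effect was then set against the effect of the same dose at 24 h, which rests on 10 other arrays. Among these, vehicle array 1 had high hybridization controls, log2 14.14 against 13.27 to 13.32 on the other 24 h vehicle arrays. Its mean correlation with them, 0.969, was the lowest of that group, while its actin 3′ to 5′ ratio, 2.95, lay within their range. At 24 h, 5319 probe sets passed the test (32%), and 20.1% of genes rose. Of the 6539 called at 48 h, 3784 (57.87%) were also called at 24 h, which is 71.14% of the 24 h calls, and 3744 of these had the same sign. The test of the difference itself called 688 probe sets (4.15%), 229 with a higher effect at 48 h (1.38%) and 459 with a lower one (2.77%). With array medians set equal it called 234, and leaving out single arrays it called between 410 and 976. Without 24 h vehicle array 1 it called 488.

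Several leading genes had a larger effect at 48 h than at 24 h, in separate wells. They and the falls below were named for the size of their 48 h change or for the difference itself. That choice favours a larger effect at 48 h. Ddit3 rose by 1.29 at 24 h and 2.12 at 48 h, a difference of 0.83 ± 0.13 (limma adjusted p = 0.000290). Its list did not follow it: of 38 stress response genes, 2 had a higher effect at 48 h and 6 a lower one. The shares of all genes were 1.68% and 2.85%. The median of that list was 0.31 at 24 h and 0.23 at 48 h. Sfn went from 0.44 to 1.60, a difference of 1.16 ± 0.17 (limma adjusted p = 0.000143). Sdf2l1, Dnase2b, Tcp11l2, Neu1 and Nudt5, an ADP-sugar hydrolase, also passed, with differences of 0.59, 0.75, 0.64, 0.79 and 0.84. A second Neu1 probe set differed by 0.29 and did not pass (limma adjusted p = 0.428). Rsad2 differed by 0.97 (limma adjusted p = 0.0359) but lost that call without 24 h vehicle array 1 and without other single arrays.

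Falls were deeper at 48 h in Steap4, from −1.05 to −2.68 (difference −1.62 ± 0.23, limma adjusted p = 0.000143). The same held for Ces1d, from −0.96 to −2.04 (difference −1.08 ± 0.14, limma adjusted p = 6.01e-05). Cyp4a1 went from −1.48 to −2.13, and Foxa3 from −0.31, which did not pass at 24 h, to −1.29 (difference −0.98 ± 0.22, limma adjusted p = 0.0111). Hamp went from −0.77 to −1.80 and Serpina3n from −0.96 to −1.62. Npy, which encodes neuropeptide Y, went from −0.66 to −1.81. On the acute phase list 11 of 36 genes had a lower effect at 48 h and 1 a higher one, beside 4.53% of all genes with a different effect, 2.85% lower and 1.68% higher. On the cholesterol list 7 of 25 had a lower effect at 48 h and 0 a higher one, although the list's median rise was 0.25 at 24 h and 0.27 at 48 h. Among ribosomal protein genes 8 of 40 had a higher effect at 48 h and 0 a lower one, with list medians of −0.11 at 24 h and 0.15 at 48 h. These shifts are small and depend on processing. The 48 h median was 0.08 without array 4, 0.09 after quantile normalization and 0.19 with array medians set equal.

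**Figure D5:**
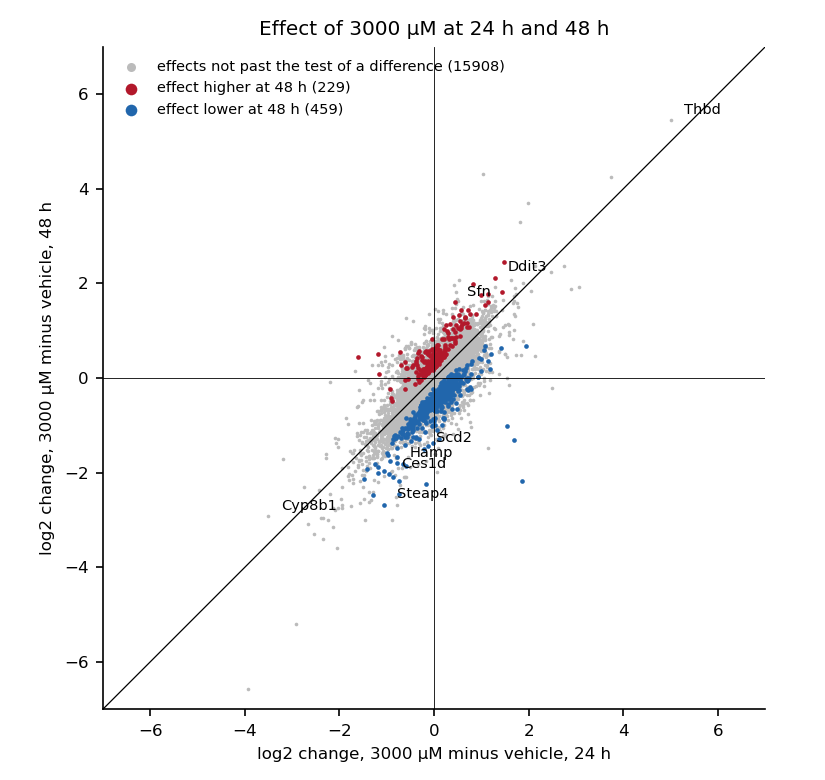
Log2 change with 3000 µM against vehicle at 24 h (x axis) and 48 h (y axis) for the 16596 tested probe sets, with the line of equal effect. The 229 red and 459 blue points passed the test of a difference between the times. Ddit3 and Sfn lie above the line and Steap4, Ces1d, Hamp and the brighter Scd2 probe set below it.

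Set directly against 300 µM at 48 h, 3000 µM changed 5790 probe sets (34.9%), 2977 higher (17.9%) and 2813 lower (16.9%), while 300 µM against vehicle changed 255 (1.54%). The direct comparison does not use the vehicle wells. It placed Ddit3 higher at 3000 µM by 1.81 and Atf3 by 1.18. Of 38 genes on the stress list, 18 were higher at 3000 µM and 8 lower, beside 21.3% and 17.2% of all genes. The comparison separated the doses for bile acid synthesis, where 11 of 16 genes were lower at 3000 µM and 0 higher. It also separated them for PPARα targets, with 31 of 42 lower and 2 higher, and for acute phase genes, with 25 of 36 lower and 0 higher. For Cyp3a2, Isg15 and Cxcl9 the difference between the doses did not pass the test (−0.20, −0.16 and 0.23, limma adjusted p = 0.156, 0.696 and 0.119).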

How the data were processed

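The deposited values, per the labels and the value table itself, are linear intensity signals made by the authors with MAS5, per the submitters' processing notes (version not given in the sources used here); each array had the same 2% trimmed mean, so they had been scaled. Signals were taken as log2 with no constant added. The fit used limma 3.58.1 in R 4.3.3 on all 30 arrays as 6 groups (trend and robust estimation), with an adjusted p under 0.05. A probe set was tested where at least 1 group mean reached the median of all values (signal 383.6). The fit was tested on simulated data. Probe sets took symbols from the platform annotation: 20826 had 1 symbol, 436 several and 9780 none. Named were the 12 largest rises and falls without overlap, 5 from a vehicle mean below the detection level and 5 to a treated mean below it (1 of them is not reported here), up to 4 called members per list, 18 fixed genes (Ppara was not tested) and 6 differences between times each way; list members named beyond these were chosen after their values were seen. Members and lists were chosen with earlier results of these data known. Alternatives were other normalizations, filters, a constant of 50, array weights, a block of running-number sets and leaving out each array. The number of arrays limits the precision.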

Additional observations from a re-analysis of the deposited data

Results flagged for a closer look

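An array that stood apart from the other 4 of its group was looked for in 360 groups of 5 and found in 24, where chance gives about 1 in 20. Array 4 of the 3000 µM group held 8 of these: it was low for Shc4 (log2 10.16) and Psmb8 (12.48) and high for Tmem255b (7.10), Blvrb (14.39), Psmd2 (14.28), Bhlhe40 (12.10), Cyp3a23-3a1 (17.15) and Alb (17.51). Array 1 of that group held 7: it was high for Cyp2b1 and Cyp2b2 (12.40), Lox (12.42), Baat (13.05), Acly (14.28) and Cdh1 (12.79), and low for Sdf2l1 (12.60) and C1qc (3.96). For Lox, Baat, Acly, Cdh1 and Sdf2l1, array 1 was the treated array nearest to the vehicle mean. In the vehicle group, 9 stood apart: array 2 for Asns (13.65), array 3 for Poteml2 (13.56) and Me1 (13.58), array 4 for Sfn (11.02), Mdm2 (11.72) and Pla2g4b (8.76), and array 5 for Ahr (5.92), Isg15 (12.09) and Cyp2e1 (9.79).

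For 34 named genes the 3000 µM effect differed between 48 h and 24 h by the fit's own test. The effect was higher at 48 h for Mylk2 (1.29), Sfn (1.16), Rsad2 (0.97), Ypel2 (0.97), Nudt5 (0.84), Ddit3 (0.83), Neu1 (0.79), Dnase2b (0.75), Tcp11l2 (0.64), Sdf2l1 (0.59), Pon1 (0.49), Gstk1 (0.38), Ndufab1 (0.34), Selenos (0.34), Ndufa6 (0.28) and Rpl18 (0.23). It was lower at 48 h for Steap4 (−1.62), Scd2 (−1.28), Npy (−1.15), Ces1d (−1.08), Spsb4 (−1.08), Vps13a (−1.06), Hamp (−1.02), Foxa3 (−0.98), Onecut1 (−0.87), Cyp2c12 (−0.80), Serpina3n (−0.65), Cyp4a1 (−0.64), Ftcd (−0.59), Nr3c1 (−0.50), Fga (−0.47), Me1 (−0.42), Cryab (−0.42) and Nr2f2 (−0.42). Spsb4 and Vps13a changed by 0.21 and 0.22 at 24 h and by −0.86 and −0.84 at 48 h. Mylk2 and Ypel2 were called lower at 24 h, at −0.73 and −0.70. Their 48 h changes of 0.56 and 0.27 did not pass the test. For Mylk2, Rsad2, Ypel2 and Vps13a the difference lost its call under several alternatives that left out 1 array. Second probe sets of Neu1 (0.29), Pon1 (0.32), Fga (−0.50), Scd2 (−0.31), Me1 (−0.17) and Nr2f2 (−0.16) did not pass the test of a difference. That of Scd2 changed by −0.17 at 48 h and did not pass there either.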

How the results depend on the processing

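The counts of probe sets changed by 3000 µM against vehicle and against 300 µM at 48 h stayed within 1.5 times under every alternative run. With each array left out in turn they ranged from 5992 to 6532 and from 5244 to 5836. The count with a different effect at 48 h and 24 h was less stable: it was 319 with the compared arrays alone, 234 with array medians set equal and 362 with no filter, and 410 to 976 with each array left out. It fell most without 3000 µM array 1 (410) or 4 (429) at 24 h, vehicle array 1 (441) or 3 (418) at 48 h, or vehicle array 2 at 24 h (437). The share of these calls with a higher effect at 48 h was 33.3%, and 17.9% with array medians set equal. The cause was not tested. Of 180 results for named genes at 48 h, 160 were the same under every alternative, 15 lost their call and 4 gained one under at least 1. Cyp2b1 and Cyp2b2 turned to −0.238 without 3000 µM array 1, and with each array left out ranged from −0.238 to 0.2714. Cyp1a1 was called lower at −0.51 but read −0.21 without 3000 µM array 5 (limma adjusted p = 0.160). With a replicate block of running-number sets the counts were 6509, 610 and 5795. Same-numbered vehicle and 3000 µM arrays at 48 h correlated at −0.0235 to 0.047, and only set 1 correlated best with its own set. At 24 h they correlated at −0.00566 to 0.0755, and sets 2, 4 and 5 correlated best with their own set. These small values do not settle whether the numbers pair the wells. Signals near the detection level limit Thbd, Clec14a and similar genes.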

Other observations

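Several further gene groups were measured at 48 h and are not described above. Of 9 carboxylesterases and amidases, 4 fell and 1 rose: beside Ces1d, Aadac, arylacetamide deacetylase, fell by 0.86 ± 0.09, and Pon1, paraoxonase, rose by 0.48 ± 0.06, while a second Pon1 probe set changed by 0.11 and did not pass. Of 27 Nrf2 targets, 9 rose and 5 fell, with a median of 0.08. Akr1b8, an aldo-keto reductase, fell by 1.35 ± 0.14, the multidrug exporter Abcc4 rose by 0.69 ± 0.15, and Hmox1, heme oxygenase, rose by 0.35 ± 0.10. Of 22 heme genes, 7 rose and 2 fell, and without array 4, 7 rose and 5 fell. Of 19 cytokine and NF-kB genes, 4 rose and 3 fell, and among them the interleukin gene Il18 rose by 0.91 ± 0.15. The brightest probe set of Csf1, a macrophage growth factor, fell by 0.64 ± 0.09, while its other 2 changed by 0.22 and 0.20 and did not pass.

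Markers of both zones of the lobule were measured. Of 11 pericentral genes 4 fell and 1 rose (5 and 0 without array 4), and of 15 periportal genes 6 fell and 2 rose, with medians of −0.19 and −0.18. Hsd17b13, a lipid droplet enzyme of periportal cells, fell by 1.45 ± 0.15 and Fbp1, of gluconeogenesis, fell by 0.97 ± 0.10. Of 13 clock genes, 4 fell and 2 rose, led by Npas2, a partner of Bmal1, at −1.33 ± 0.14. Of 6 AhR genes, 2 fell and 1 rose. Cyp1a2 changed by −0.34 ± 0.12, and with array medians set equal 0 fell.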
